A study of Mus musculus with 16 samples.

Results

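The tricarboxylic acid (TCA) cycle enzymes described here are the products of 9 genes of the 17883 in the deposited matrix, chosen by gene symbol: Cs, Idh3a, Idh3b, Idh3g, Ogdh, Dlst, Suclg1, Fh1 and Mdh2. The cycle runs in the mitochondrial matrix. It oxidises the acetyl groups made from fat and sugar, releases carbon dioxide, and passes electrons to the respiratory chain as NADH and reduced flavin. In thermogenic fat those electrons drive the proton gradient that the uncoupling protein UCP1 turns into heat, so brown and beige adipocytes are rich in mitochondria and in these enzymes.

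The samples were adipose tissue of C57BL/6 mice aged 8 weeks, with no depot named in the labels, and the study asked what m6A marks written by METTL3 do in the beiging of fat. cKO cold mice carried Mettl3 flox/flox with Adipoq-Cre +/- and were housed singly at 4 °C for 7 days. WT cold mice carried Mettl3 flox/flox without Cre and had the same cold housing, and WT RT mice had that same Cre-free genotype and were left untreated. Every animal thus carried the floxed allele, and Adipoq-Cre acts in adipocytes, so other cells of cKO fat keep their Mettl3. Whole RNA (input) and RNA captured with an antibody to m6A were sequenced from all 3 conditions, and ribosome-protected fragments (footprints) from cKO cold and WT cold, with 2 libraries in each of 8 groups. Whether replicates came from separate animals is not stated in the labels, and the p-values below reflect spread among libraries that may be technical. WT RT libraries have another series of library codes than both cold conditions, and the effect of cold cannot be told apart from that of the code series.

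Input libraries held 3895031 to 8673393 reads, m6A libraries 4883129 to 6426541, and footprint libraries at least 1676208 to 2461267. Values are RPKM, read numbers scaled to transcript length and to the reads of the library. The fewest reads behind any value of a member were 313 in input, 91 in m6A and at least 313 in footprint libraries. All 10 adipocyte markers were above 0 in every input library, and their summed level was 10570.5 and 12683 RPKM in cKO cold, 12900.2 and 13549 RPKM in WT cold, and 9168 and 9274 RPKM in WT RT. Mettl3 itself had 3.83 and 1.90 RPKM in cKO cold inputs, 5.24 and 3.66 RPKM in WT cold inputs, and 10.8 and 9.27 RPKM in WT RT inputs. The libraries of the cold genotypes overlapped in it. In m6A libraries they overlapped too, at 5.37 and 2.33 RPKM of Mettl3 in cKO cold, against 4.23 and 2.69 RPKM in WT cold. In footprints both cKO cold libraries, at 8.99 and 5.22 RPKM, lay above both WT cold libraries, at 4.60 and 4.82 RPKM, which runs against the label. With no floxed exons named in the labels, a value over the whole gene does not check the deletion. Skeletal muscle markers were uneven between replicates, at a sum of 4.16 and 152 RPKM in cKO cold, 0.81 and 7.72 RPKM in WT cold and 271 and 10.7 RPKM in WT RT inputs.

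RNA of the 9 enzymes was higher after cold in WT fat and lower in cKO fat kept in the same cold. Reads on the 9 genes made up 0.236% and 0.250% of all reads in cKO cold inputs, 0.506% and 0.468% in WT cold inputs, and 0.190% and 0.204% in WT RT inputs. In WT cold all 9 members were higher than in WT RT (limma with Benjamini-Hochberg adjustment, adjusted p = 0.000145 to 0.00106), whereas 6.52% of the 12667 genes tested were called higher and 51.2% lower. All 9 were lower in cKO cold than in WT cold (limma with Benjamini-Hochberg adjustment, adjusted p = 0.00369 to 0.0143), whereas 2.92% of genes were called lower and 23.6% higher. Both comparisons use the same WT cold libraries, so their values are given side by side and not as independent evidence. The members' median log2 fold change was 1.24 for WT cold over WT RT, where that of all genes tested was -0.67, and -0.95 for cKO cold over WT cold, where that of all genes was 0.40. With median-ratio scaling, which moves the median of all genes to -0.06 and 0.02, genes called higher and lower numbered 2376 and 2592 for WT cold over WT RT and 756 and 852 for cKO cold over WT cold, and all 9 members kept their calls. In bulk tissue, fewer cells of a type and less RNA per cell cannot be told apart.

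**Figure D1:**
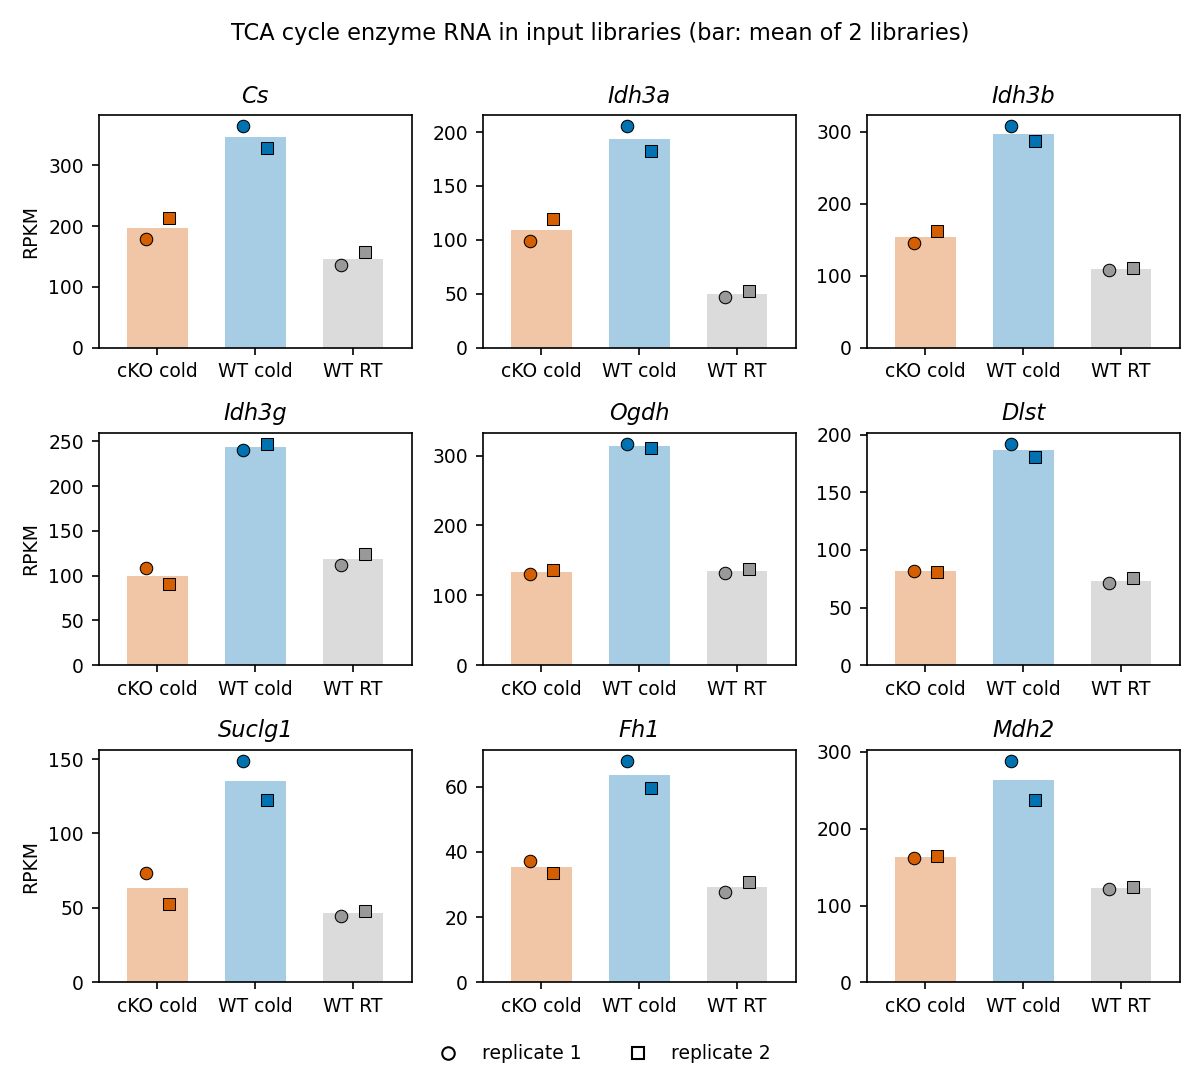
Input RPKM of each enzyme gene on a linear axis from 0, with 1 point per library and bars for the mean of 2 libraries in cKO cold, WT cold and WT RT. For every gene both WT cold points lie above both cKO cold and both WT RT points. The share of all genes that separate in this way is not given here.

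Cs encodes citrate synthase, which joins acetyl-CoA to oxaloacetate to make citrate and opens the cycle (GRCm38.p6, chr10:128337727-128362482). It stood at 179 and 214 RPKM in cKO cold inputs, 365 and 328 RPKM in WT cold inputs and 136 and 157 RPKM in WT RT inputs. WT cold libraries were highest and overlapped no other condition. The log2 fold change was 1.24 ± 0.15 for WT cold over WT RT and -0.82 ± 0.15 for cKO cold over WT cold (standard error, n = 2 libraries a group, as throughout). Csl, a citrate synthase-like copy in the same genome, was listed at 0 in all 6 input libraries.

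The NAD-dependent isocitrate dehydrogenase makes alpha-ketoglutarate and the first carbon dioxide of the cycle, with a catalytic subunit encoded by Idh3a (chr9:54586511-54604662) and further subunits encoded by Idh3b (chr2:130279309-130284451) and Idh3g (chrX:73778963-73786897). Idh3a stood at 99.2 and 119 RPKM in cKO cold inputs, 205 and 182 RPKM in WT cold inputs and 46.7 and 52.4 RPKM in WT RT inputs. It rose 3.86-fold in WT cold over WT RT, a log2 fold change of 1.95 ± 0.14 that placed it at rank 42 from the top of 12667 genes, and fell by 0.83 ± 0.14 on the log2 scale in cKO cold relative to WT cold. The 3 conditions did not overlap, and the cKO cold libraries lay between the others. Idh3b stood at 146 and 161 RPKM in cKO cold inputs, 307 and 286 RPKM in WT cold inputs and 108 and 110.4 RPKM in WT RT inputs. Idh3g stood at 109 and 90.6 RPKM in cKO cold inputs, 240.2 and 247 RPKM in WT cold inputs and 112 and 125 RPKM in WT RT inputs. In cKO cold, Idh3b thus lay above its WT RT libraries and Idh3g below them. The log2 fold changes of WT cold over WT RT were 1.43 ± 0.12 for Idh3b and 1.04 ± 0.14 for Idh3g, and those of cKO cold over WT cold were -0.95 ± 0.12 and -1.29 ± 0.14.

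The alpha-ketoglutarate dehydrogenase complex makes succinyl-CoA, with Ogdh (chr11:6291597-6359094) encoding the decarboxylase and Dlst (chr12:85110822-85134091) the succinyltransferase of its core. Ogdh stood at 131 and 136 RPKM in cKO cold inputs, 317 and 311 RPKM in WT cold inputs and 132 and 138 RPKM in WT RT inputs. Dlst stood at 81.9 and 81.3 RPKM in cKO cold inputs, 192 and 181 RPKM in WT cold inputs and 71.2 and 75.3 RPKM in WT RT inputs. Replicates of both genes lay close together, and the WT cold libraries stood apart from the rest. For WT cold over WT RT the log2 fold change was 1.21 ± 0.11 for Ogdh and 1.34 ± 0.11 for Dlst. For cKO cold over WT cold it was -1.23 ± 0.11 for Ogdh and -1.18 ± 0.11 for Dlst. Dld, the lipoamide dehydrogenase that this complex shares with pyruvate dehydrogenase, stood at 86.8 and 115 RPKM in cKO cold inputs, 153 and 152 RPKM in WT cold inputs and 41.6 and 47.0 RPKM in WT RT inputs. Its log2 fold change was 1.76 ± 0.16 for WT cold over WT RT and -0.61 ± 0.16 for cKO cold over WT cold.

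Suclg1 (chr6:73248505-73276907) encodes the alpha subunit of succinyl-CoA synthetase, which makes succinate and a nucleoside triphosphate. It pairs with the beta subunit of Sucla2 for ATP or of Suclg2 for GTP. Suclg1 stood at 73.7 and 52.9 RPKM in cKO cold inputs, 149 and 122 RPKM in WT cold inputs and 44.6 and 48.1 RPKM in WT RT inputs. Its log2 fold change was 1.52 ± 0.19 for WT cold over WT RT and -1.10 ± 0.19 for cKO cold over WT cold. Sucla2 stood at 52.4 and 60.3 RPKM in cKO cold inputs, 154 and 121 RPKM in WT cold inputs and 38.7 and 41.3 RPKM in WT RT inputs, with log2 fold changes of 1.74 ± 0.16 for WT cold over WT RT and -1.26 ± 0.16 for cKO cold over WT cold that both passed. Suclg2 stood at 15.2 and 12.6 RPKM in cKO cold inputs, 20.7 and 11.7 RPKM in WT cold inputs and 18.1 and 16.1 RPKM in WT RT inputs. Neither comparison of Suclg2 passed (log2 fold change -0.12 ± 0.26 for WT cold over WT RT, limma with Benjamini-Hochberg adjustment, adjusted p = 0.706, and -0.16 ± 0.26 for cKO cold over WT cold, adjusted p = 0.663), which does not show that its level was the same. The difference between Suclg1 and Suclg2 in response was not itself tested across genes.

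Fh1 (chr1:175601378-175625635) encodes fumarase, which hydrates fumarate to malate. It stood at 37.2 and 33.5 RPKM in cKO cold inputs, 67.9 and 59.5 RPKM in WT cold inputs and 27.7 and 30.8 RPKM in WT RT inputs, and was the lowest member in all 3 conditions. Mdh2 (chr5:135778649-135790386) encodes the mitochondrial malate dehydrogenase, which remakes oxaloacetate and closes the cycle. It stood at 162 and 165 RPKM in cKO cold inputs, 288 and 238 RPKM in WT cold inputs and 121 and 125 RPKM in WT RT inputs. Both genes kept their 3 conditions apart, with WT RT lowest. The log2 fold change of WT cold over WT RT was 1.10 ± 0.14 for Fh1 and 1.08 ± 0.13 for Mdh2. In cKO cold relative to WT cold, Fh1 fell by 0.83 ± 0.14 and Mdh2 by 0.68 ± 0.13 on the log2 scale. The Mdh2 call of cKO cold over WT cold was lost without cKO cold input replicate 1 (limma with Benjamini-Hochberg adjustment, adjusted p = 0.0512).

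**Figure D2:**
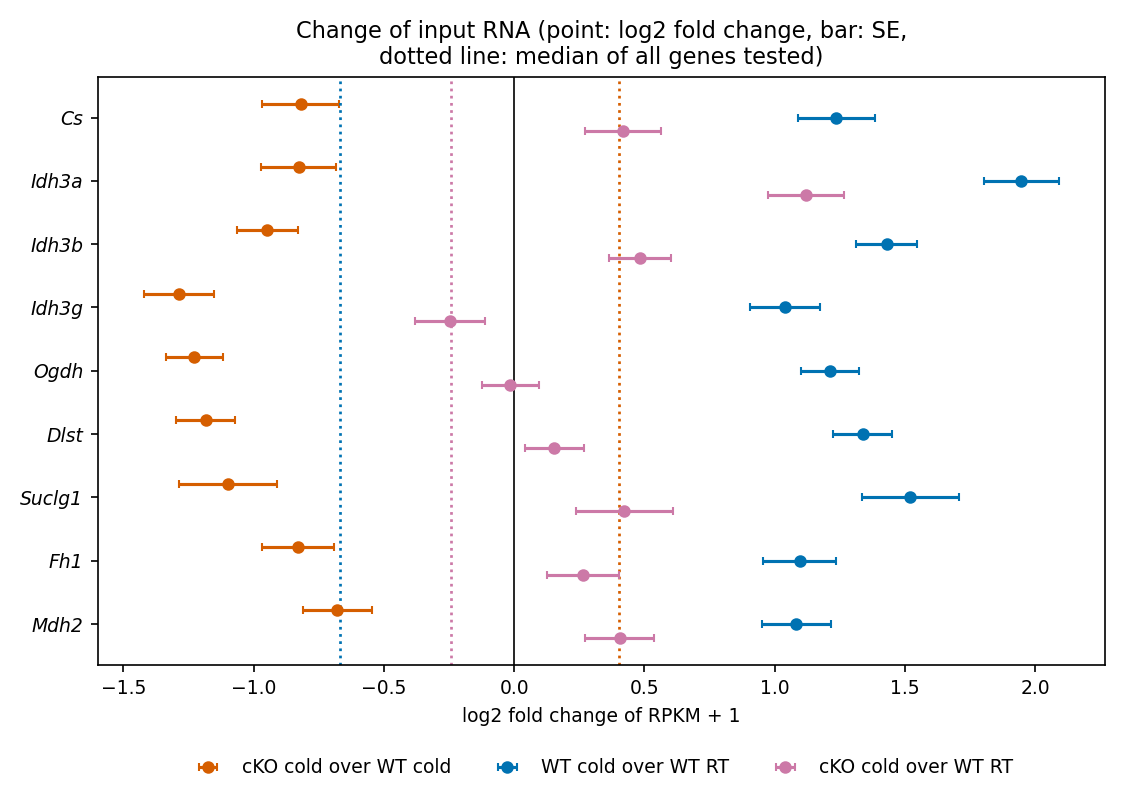
Log2 fold change of each enzyme gene in input RNA with its standard error, for cKO cold over WT cold, WT cold over WT RT and cKO cold over WT RT, which share libraries, with dotted lines at the median of all genes tested. Every member lies below 0 for cKO cold over WT cold and above 0 for WT cold over WT RT, and for cKO cold over WT RT the members spread from -0.25 (Idh3g) to 1.12 (Idh3a).

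Markers of several cell types moved with these comparisons. Beige and brown adipocyte markers summed to 193 and 178 RPKM in cKO cold inputs, 1714 and 1403 RPKM in WT cold inputs and 133 and 196 RPKM in WT RT inputs, and 7 of 7 were called lower in cKO cold than in WT cold, and 7 of 7 higher for WT cold over WT RT. Macrophage markers summed to 1448 and 697 RPKM in cKO cold, 194 and 180.4 RPKM in WT cold and 748 and 805 RPKM in WT RT inputs. For these markers 9 of 10 were called higher in cKO cold than in WT cold and 7 of 10 lower for WT cold over WT RT. Over all genes tested, 23.6% were called higher and 2.92% lower in cKO cold than in WT cold. For WT cold over WT RT the shares were 6.52% higher and 51.2% lower. T and B cell markers summed to 30.7 and 16.5 RPKM in cKO cold, 5.70 and 3.84 RPKM in WT cold and 786 and 746 RPKM in WT RT inputs, with the B cell gene Cd79a at 0 in both WT cold libraries. Fibroblast and preadipocyte markers summed to 2165 and 990 RPKM in cKO cold, 513 and 353 RPKM in WT cold and 1549 and 1536 RPKM in WT RT inputs. The part of these cell types in the enzyme differences was not tested. Set against the adipocyte marker sum of the same library, the 9 enzymes together made 9.63% and 8.31% in cKO cold, 16.5% and 14.4% in WT cold and 8.73% and 9.28% in WT RT inputs, so WT cold stood apart on that scale too. Set against Adipoq, the gene whose promoter drives the Cre (a ratio chosen after the values were seen), their sum was 1.64 and 1.46 times in cKO cold, 4.28 and 4.15 times in WT cold and 1.41 and 1.65 times in WT RT inputs. Adipoq itself was called higher in cKO cold than in WT cold (log2 fold change 0.47 ± 0.14, limma with Benjamini-Hochberg adjustment, adjusted p = 0.0458). That difference widens the gap between the genotypes in this ratio. A further fit left out the 2 inputs richest in muscle markers, WT RT replicate 1 and cKO cold replicate 2, a choice made after seeing the data. It leaves 1 library each in WT RT and cKO cold, so its spread comes from the 2 WT cold libraries alone. All 9 members still had log2 fold changes above 0 for WT cold over WT RT in that fit. For cKO cold over WT cold most members lost their calls, with log2 fold changes of -1.26 for Ogdh and -1.18 to -0.69 for the other 8.

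Set directly against warm WT fat, cKO cold fat differed by member. Idh3a and Idh3b were higher in cKO cold than in WT RT, with log2 fold changes of 1.12 ± 0.14 (limma with Benjamini-Hochberg adjustment, adjusted p = 0.00216) and 0.48 ± 0.12 (adjusted p = 0.0218), 2 of 9 members against 8.38% of genes called higher and 24.7% lower. The other 7 members lay between -0.25 ± 0.14 for Idh3g and 0.42 ± 0.19 for Suclg1 and did not pass (adjusted p = 0.0545 to 0.931), which does not show that they were back at the WT RT level. The Idh3b call was lost without WT RT input replicate 1 (limma with Benjamini-Hochberg adjustment, adjusted p = 0.19), WT RT input replicate 2 (adjusted p = 0.158) or cKO cold input replicate 2 (adjusted p = 0.0693). With median-ratio scaling 7 members were called higher, all but Idh3g and Ogdh, and 13.3% of genes were called higher and 15.6% lower. This comparison shares its libraries with both comparisons above and crosses the series of library codes.

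Ratios between partner subunits within a library do not depend on how libraries were scaled. Idh3a over Idh3g was 0.911 and 1.31 in cKO cold inputs, 0.855 and 0.737 in WT cold inputs and 0.417 and 0.421 in WT RT inputs. Idh3a over Idh3b was 0.681 and 0.739 in cKO cold, 0.668 and 0.638 in WT cold and 0.430 and 0.475 in WT RT inputs. Idh3b over Idh3g was 1.34 and 1.78 in cKO cold, 1.28 and 1.16 in WT cold and 0.970 and 0.886 in WT RT inputs. The catalytic Idh3a was thus the scarcest of the 3 subunits per length in both WT RT inputs, both WT cold inputs and cKO cold replicate 1. In cKO cold replicate 2 Idh3g lay below it. The conditions did not overlap in these 3 ratios, though for Idh3a over Idh3b the gap between the cold genotypes was narrow, 0.681 against 0.668. Ogdh over Dlst was 1.60 and 1.68 in cKO cold, 1.65 and 1.72 in WT cold and 1.86 and 1.83 in WT RT inputs. The cold genotypes overlapped in it, and both lay slightly below WT RT. Suclg1 over Suclg2 was 4.85 and 4.20 in cKO cold, 7.18 and 10.5 in WT cold and 2.47 and 2.98 in WT RT inputs. Suclg1 over Sucla2 was 1.41 and 0.877 in cKO cold, 0.968 and 1.01 in WT cold and 1.15 and 1.17 in WT RT inputs. The cKO cold libraries spanned the others, and WT cold lay below WT RT. With 2 libraries against 2 the exact two-sided permutation test cannot go below p = 0.333, so these ratios are descriptions.

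**Figure D3:**
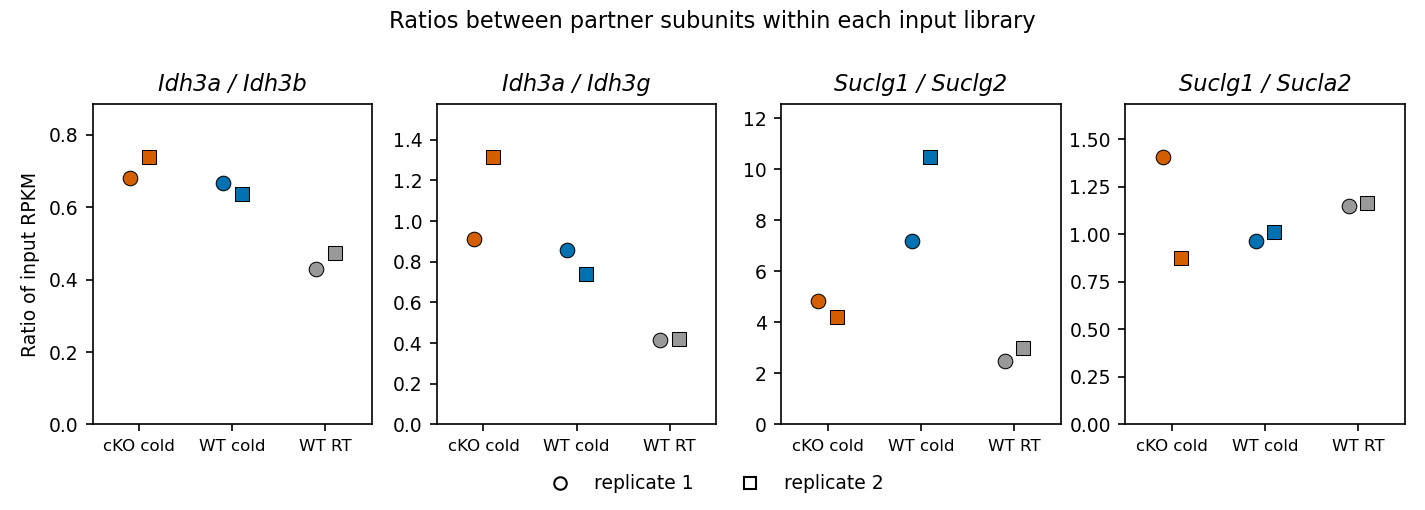
Linear ratio of input RPKM between partner subunits, with 1 point per library in cKO cold, WT cold and WT RT. The 3 conditions stand apart in the ratios of Idh3a to Idh3b, Idh3a to Idh3g and Suclg1 to Suclg2, with a narrow gap between the cold genotypes for Idh3a to Idh3b. For Suclg1 to Sucla2, cKO cold overlaps both other conditions, and WT cold lies below WT RT.

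By level in input RNA, Cs was the highest member and Fh1 the lowest in each condition. In WT RT the order of mean RPKM was Cs, Ogdh, Mdh2, Idh3g, Idh3b, Dlst, Idh3a, Suclg1 and Fh1. Replicates of Cs and Ogdh, of Mdh2 and Idh3g, and of Idh3a and Suclg1 overlapped there, so those neighbours had no clear order. In WT cold the order was Cs, Ogdh, Idh3b, Mdh2, Idh3g, Idh3a, Dlst, Suclg1 and Fh1, with overlap between Idh3b and Mdh2, Mdh2 and Idh3g, and Idh3a and Dlst. In cKO cold it was Cs, Mdh2, Idh3b, Ogdh, Idh3a, Idh3g, Dlst, Suclg1 and Fh1, and Idh3a and Idh3g overlapped.

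The promoters of 8 members were found among the RefSeq windows for GRCm38.p6, which run from 250 bases before to 50 after a gene's start. They were searched on both strands for 5 motifs of factors known to act on mitochondrial genes. CCGGAAG, the ETS family motif to which GABP binds, was found in 3 of 8 members (Idh3b, Idh3g and Dlst), in 8.86% of all 32851 windows and in 19.5% of 10048 tested genes. These 3 windows are shown because they hold the members' matches to CCGGAAG, with motif letters in capitals as either strand reads, and with CCAAT also marked in Idh3b. They lie at chr12:85110583-85110882 on the plus strand for Dlst, chr2:130284402-130284701 on the minus strand for Idh3b and chrX:73786848-73787147 on the minus strand for Idh3g, each written 5′ to 3′ on the gene's strand.
Dlst: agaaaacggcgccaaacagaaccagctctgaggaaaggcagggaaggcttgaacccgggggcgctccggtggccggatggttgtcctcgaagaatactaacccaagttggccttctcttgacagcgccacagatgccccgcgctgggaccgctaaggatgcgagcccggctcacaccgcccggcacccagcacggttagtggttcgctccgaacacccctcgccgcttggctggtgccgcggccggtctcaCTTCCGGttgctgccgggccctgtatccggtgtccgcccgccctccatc
Idh3b: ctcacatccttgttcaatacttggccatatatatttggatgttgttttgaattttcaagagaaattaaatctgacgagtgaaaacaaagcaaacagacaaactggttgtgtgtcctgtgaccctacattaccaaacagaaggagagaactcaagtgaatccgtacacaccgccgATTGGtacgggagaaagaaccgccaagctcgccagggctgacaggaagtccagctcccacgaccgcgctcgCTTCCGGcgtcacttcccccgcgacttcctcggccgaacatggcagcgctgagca
Idh3g: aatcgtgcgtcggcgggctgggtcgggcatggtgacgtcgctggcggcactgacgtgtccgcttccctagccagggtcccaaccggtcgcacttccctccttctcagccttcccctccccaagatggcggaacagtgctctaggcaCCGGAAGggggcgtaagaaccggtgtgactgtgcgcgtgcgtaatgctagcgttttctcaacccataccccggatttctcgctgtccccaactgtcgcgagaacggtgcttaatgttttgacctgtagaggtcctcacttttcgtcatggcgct
The first base of the CCGGAAG match lay at position 1 in Dlst, -5 in Idh3b and -104 in Idh3g, where 1 is the start itself. CCAAT, the NF-Y motif, was found in 4 of 8 members (Cs, Idh3b, Ogdh and Fh1), in 37.4% of all windows and in 42.9% of tested genes. AAGGTCA, the core of oestrogen-related receptor sites, was found in Ogdh alone, in 1 of its 6 windows. It was in 4.72% of all windows and in 3.87% of tested genes. Its longer form TCAAGGTCA, which contains that core, was in none of the 8, in 0.423% of windows and in 0.299% of tested genes. The palindromic NRF1 motif was in none of the 8, in 0.971% of windows and in 2.27% of tested genes. A match describes letters in a window and is not evidence of binding. Of the 3 members with CCGGAAG, Idh3b, Dlst and Idh3g had log2 fold changes of 1.43, 1.34 and 1.04 in WT cold over WT RT, and the 5 members whose windows lack it had 1.08 to 1.52.

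In the m6A precipitates every member was less abundant than in the input of its own condition. This is the comparison of captured with whole RNA, and a negative log2 fold change says that a transcript took a smaller share of the captured reads than of the input reads. All 9 members were lower in m6A than in input in cKO cold, WT cold and WT RT alike (limma with Benjamini-Hochberg adjustment, adjusted p = 3.07e-06 to 0.0159 over all 27 tests), against 35.2%, 25.6% and 34.6% of the 13062 genes tested in those conditions. Genes called higher made up 11.4% in cKO cold, 13.7% in WT cold and 16% in WT RT. With quantile scaling the shares called lower and higher were 21.7% and 20.8% in cKO cold, 19.3% and 19.1% in WT cold, and 25.4% and 25.6% in WT RT, and the members called lower numbered 8 in cKO cold, 6 in WT cold and 9 in WT RT. Without that scaling the median log2 fold change of all genes was -0.30 in cKO cold, -0.11 in WT cold and -0.25 in WT RT. Idh3a was the lowest member throughout. It stood at 25.0 and 28.9 RPKM in cKO cold m6A libraries, 60.0 and 58.6 RPKM in WT cold and 7.58 and 9.36 RPKM in WT RT. Those values rest on 326 and 396 reads in cKO cold, 940 and 972 in WT cold and 112 and 118 in WT RT. Its log2 m6A over input was -1.98 ± 0.15 in cKO cold, -1.69 ± 0.15 in WT cold and -2.42 ± 0.15 in WT RT. In WT RT it ranked 86 from the bottom of the 13062 genes. Idh3b and Fh1 came next, Idh3b at -1.56 ± 0.11 in cKO cold, -1.39 ± 0.11 in WT cold and -1.83 ± 0.11 in WT RT, and Fh1 at -1.31 ± 0.17 in cKO cold, -1.30 ± 0.17 in WT cold and -1.84 ± 0.17 in WT RT. Dlst lay nearest to its input in both cold conditions, at -0.55 ± 0.10 in cKO cold and -0.37 ± 0.10 in WT cold. With quantile scaling the WT cold value of Dlst became 0.05 (limma with Benjamini-Hochberg adjustment, adjusted p = 0.725). In WT cold, the calls of Dlst and Mdh2 were lost without WT cold input replicate 1 or without WT cold m6A replicate 2, and in WT RT that of Suclg1 was lost without WT RT input replicate 2 or without WT RT m6A replicate 1 (limma with Benjamini-Hochberg adjustment, adjusted p = 0.0625 to 0.127).

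**Figure D4:**
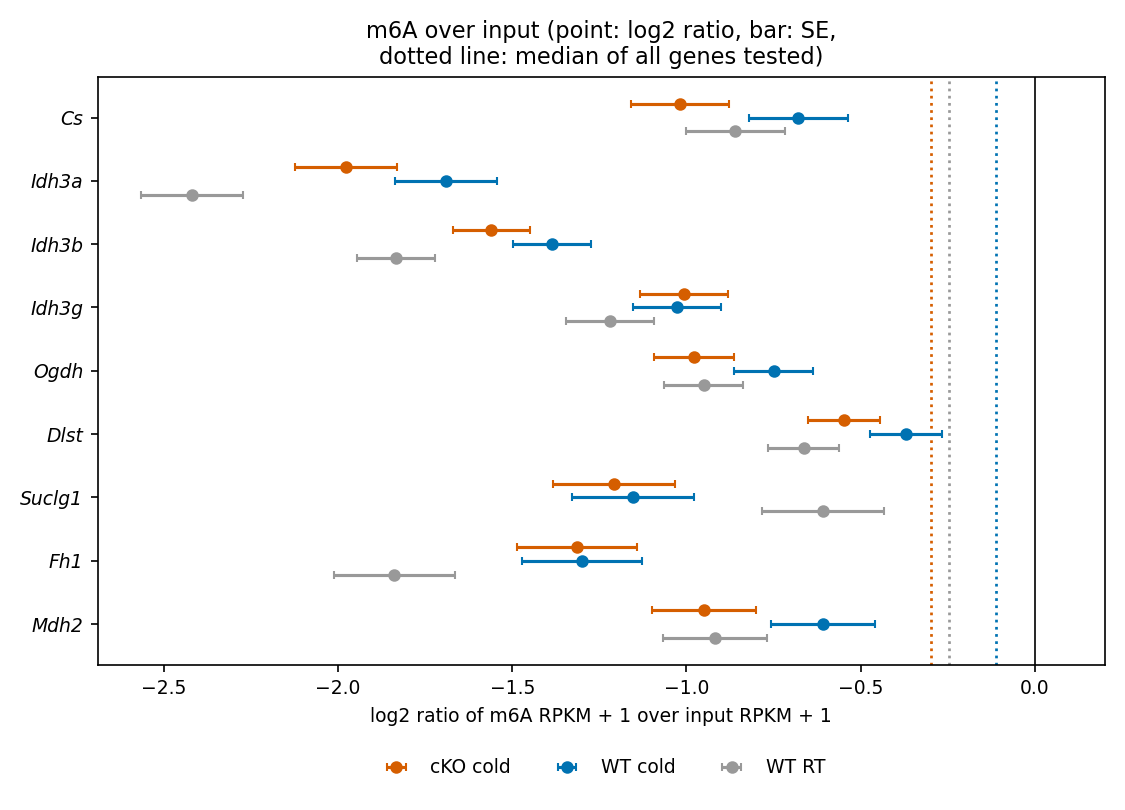
Log2 of m6A over input for each enzyme gene with its standard error, in cKO cold, WT cold and WT RT, with dotted lines at the median of all genes tested. All points lie below 0, with Idh3a lowest in each condition.

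A difference in m6A over input between conditions was not detected for any member in the fit without pairing. For WT cold over WT RT the interaction was called in 0 of 9 members, against 0.0230% of genes called higher and 0.0383% lower, with 1486 of 13062 genes at an unadjusted p under 0.05. The members' median was 0.29 and that of all genes 0.11. Idh3a had the largest member value, 0.73 ± 0.21 (limma with Benjamini-Hochberg adjustment, adjusted p = 0.236). With replicate numbers as a block, which pair input and m6A libraries of a condition, Idh3a passed as the 1 member called (adjusted p = 0.0288), and 222 genes were called higher and 48 lower. Suclg1 had the lowest member value, -0.55 ± 0.25 (limma with Benjamini-Hochberg adjustment, adjusted p = 0.445). Its m6A libraries stood at 59.8 and 60.2 RPKM in WT cold, against 26.6 and 34.0 RPKM in WT RT. For cKO cold over WT cold the interaction lay between -0.34 and 0.02 in the 9 members, with a median of -0.18 where that of all genes was -0.14. None of the 13062 genes was called in that limma fit (0% higher and 0% lower), with 1311 genes and 0 members at an unadjusted p under 0.05. The block called 8 genes higher and 397 lower there, and 0 members.

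Footprints of the enzymes were lower in cKO cold than in WT cold. Reads on the 9 genes made up 0.293% and 0.370% of footprint reads in cKO cold, against 0.905% and 0.736% in WT cold. In the limma fit 7 of 9 members were called lower (Benjamini-Hochberg adjusted p = 0.00951 to 0.0467), whereas 1.54% of 12763 genes were called lower and 5.61% higher. With median-ratio scaling 2.88% of genes were called lower and 1.04% higher, and all 9 members lower. Idh3g stood at 150.2 and 202 RPKM in cKO cold footprints, against 589 and 669 RPKM in WT cold footprints, a log2 fold change of -1.84 ± 0.24. Suclg1 stood at 185 and 158 RPKM in cKO cold, against 538 and 623 RPKM in WT cold footprints (log2 fold change -1.75 ± 0.25). Idh3a stood at 396 and 537 RPKM in cKO cold, against 1673 and 1116 RPKM in WT cold footprints (log2 fold change -1.57 ± 0.28). These 3 showed the largest differences among members, each with a wide gap between the genotypes. Ogdh, Dlst and Idh3b had log2 fold changes of -1.39 ± 0.23, -1.46 ± 0.23 and -1.15 ± 0.24. Fh1 stood at 155 and 171 RPKM in cKO cold, against 318 and 272 RPKM in WT cold footprints (log2 fold change -0.85 ± 0.21). Cs and Mdh2 did not pass. Cs stood at 416 and 527 RPKM in cKO cold, against 1299 and 750.5 RPKM in WT cold footprints (log2 fold change -1.08 ± 0.30, limma with Benjamini-Hochberg adjustment, adjusted p = 0.0639). Mdh2 stood at 541 and 703 RPKM in cKO cold, against 1178 and 820 RPKM in WT cold footprints (log2 fold change -0.67 ± 0.27, limma with Benjamini-Hochberg adjustment, adjusted p = 0.136).

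The number of footprint calls rested on single libraries. It was 2 of 9 without WT cold footprint replicate 2, 2 without cKO cold footprint replicate 1, and 3 without either WT cold input replicate, which enter through the shared estimate of spread. Leaving out any other library gave 5 or 6 calls. The share of all genes called in these fits is not given here, so the drop says nothing particular about the members. Fh1 lost its call without any 1 of the 8 libraries (limma with Benjamini-Hochberg adjustment, adjusted p = 0.0644 to 0.147), while Idh3g kept it in each such fit. All members stayed below 0 in every one of these fits, at log2 fold changes of -2.06 to -0.41. The cKO cold footprint replicate 1 held a muscle marker sum of 341 RPKM, against 7.56 RPKM in cKO cold replicate 2 and 9.56 and 5.28 RPKM in WT cold, and its part in the enzyme values was not tested. As a share of the adipocyte marker sum the members' footprints made 4.00% and 5.67% in cKO cold, against 12.7% and 7.42% in WT cold.

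**Figure D5:**
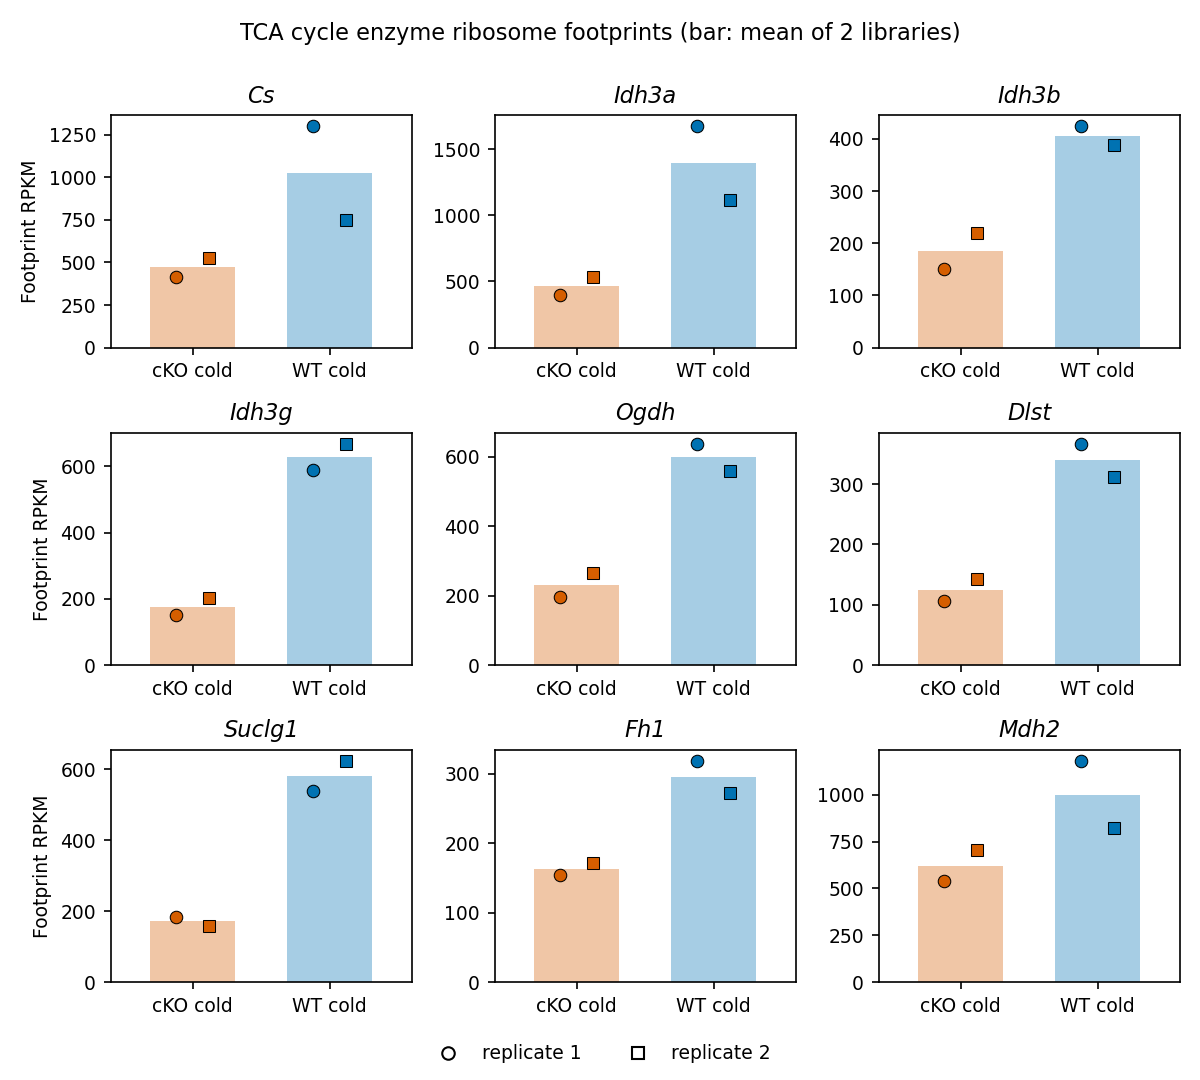
Footprint RPKM of each enzyme gene in cKO cold and WT cold on a linear axis from 0, with 1 point per library and bars for the mean of 2 libraries. Both WT cold points lie above both cKO cold points for all 9 genes. The share of all genes that separate in this way is not given here.

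The change of footprints over input between genotypes, a measure of altered translation per transcript, passed for none of the 9 members and for none of 12763 genes in limma (0% higher and 0% lower). At an unadjusted p under 0.05 there were 459 genes and 0 members. Member values ran from -0.74 ± 0.40 for Idh3a and -0.65 ± 0.35 for Suclg1 to 0.01 ± 0.38 for Mdh2, with a median of -0.26, where that of all genes was 0.00 at 2 decimals. The standard errors of 0.30 to 0.43 come from the fit without pairing and set how small a change that fit could show. A p above the threshold does not show that translation was the same.

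The remaining enzymes of the mitochondrial cycle moved largely with the members. Of 9 such genes 7 were higher and 0 lower for WT cold over WT RT, with a median log2 fold change of 1.24, against 6.52% and 51.2% of all genes. In cKO cold than in WT cold 0 were higher and 7 lower, with a median of -0.79, against 23.6% and 2.92% of all genes. The succinate dehydrogenase subunits Sdha, Sdhb, Sdhc and Sdhd, between succinyl-CoA synthetase and fumarase, rose by 0.83, 1.24, 0.47 and 1.37 in WT cold over WT RT and had log2 fold changes of -1.01, -0.93, -0.52 and -0.79 in cKO cold over WT cold, all of which passed. Idh2, the NADP-dependent isocitrate dehydrogenase, passed in neither comparison, at 49.3 and 42.4 RPKM in cKO cold, 49.2 and 36.4 RPKM in WT cold and 45.0 and 45.5 RPKM in WT RT inputs. In footprints 4 of the 9 were lower in cKO cold than in WT cold (among them Sucla2, Sdhb and Sdha) and 0 higher, with a median of -1.04, against 1.54% and 5.61% of all genes. Among the cytosolic counterparts Aco1, Idh1 and Mdh1, only Mdh1 passed, at 1.44 ± 0.12 in WT cold over WT RT and -0.55 ± 0.12 in cKO cold over WT cold.

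Genes that feed the cycle or draw from it were mixed. Of 22 tested, 12 were higher and 6 lower for WT cold over WT RT (median log2 fold change 0.73), against 6.52% and 51.2% of all genes. Between the cold genotypes 3 were higher and 9 lower in cKO cold than in WT cold (median -0.39), against 23.6% and 2.92% of all genes. Those that admit pyruvate rose together in WT cold: the mitochondrial pyruvate carrier genes Mpc1 and Mpc2 by 2.10 ± 0.18 and 1.64 ± 0.15, and the pyruvate dehydrogenase genes Pdhb, Dlat, Pdhx and Pdha1 by 1.84, 1.80, 1.60 and 1.39. In cKO cold over WT cold Mpc1 and Mpc2 had log2 fold changes of -0.78 ± 0.18 and -0.55 ± 0.15, Dlat, Pdhb and Pdha1 of -1.06, -1.01 and -0.81, and these 5 passed while Pdhx did not (-0.48 ± 0.16, limma with Benjamini-Hochberg adjustment, adjusted p = 0.0675). Me1, the cytosolic malic enzyme, rose by 2.56 ± 0.31 in WT cold over WT RT and stood at -1.27 ± 0.31 in cKO cold over WT cold. Got2, the mitochondrial aspartate aminotransferase, went the other way, at -1.23 ± 0.17 in WT cold over WT RT and 1.06 ± 0.17 in cKO cold over WT cold.

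Of 10 tested regulators of mitochondrial genes, 5 were higher and 1 lower for WT cold over WT RT, against 6.52% and 51.2% of all genes. Between the cold genotypes 0 were higher and 5 lower in cKO cold than in WT cold, against 23.6% and 2.92% of all genes. Those that passed include the nuclear receptors Ppara and Esrrg, the coactivators Ppargc1a and Ppargc1b, and the muscle-enriched regulator Perm1. Their log2 fold changes for WT cold over WT RT were 2.01 ± 0.46 for Ppara, 1.66 ± 0.26 for Ppargc1a, 1.57 ± 0.22 for Perm1, 1.45 ± 0.34 for Ppargc1b and 0.63 ± 0.22 for Esrrg. For cKO cold over WT cold they were -2.42 ± 0.46 for Ppara, -1.88 ± 0.22 for Perm1, -1.74 ± 0.34 for Ppargc1b, -1.32 ± 0.26 for Ppargc1a and -1.16 ± 0.22 for Esrrg. In footprints 4 of 10 were lower in cKO cold than in WT cold and 0 higher, against 1.54% and 5.61% of all genes: Ppara, Perm1, Ppargc1a and the deacetylase gene Sirt3. Their footprint levels were low. Perm1 stood at 0.19 and 0 RPKM in cKO cold, against 3.47 and 5.41 RPKM in WT cold. Ppargc1a stood at 1.54 and 4.91 against 9.87 and 22.6 RPKM, Sirt3 at 2.98 and 3.68 against 17.3 and 8.48 RPKM, and Ppara at 6.55 and 7.28 against 21.9 and 78.4 RPKM. In input, Gabpa, Esrra, Tfam and Sirt3 passed neither for WT cold over WT RT nor for cKO cold over WT cold. Nrf1 was lower for WT cold over WT RT (-1.24 ± 0.23). For cKO cold over WT RT, Tfam was lower (-0.65 ± 0.19, limma with Benjamini-Hochberg adjustment, adjusted p = 0.0381), against 24.7% of all genes. The median over the list was 0.45 for WT cold over WT RT and -0.81 for cKO cold over WT cold.

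Across the 6 input libraries, the genes whose log2(RPKM + 1) ran most like the members' mean included Etfdh, Clybl, Hadha and Ddt, with Pearson's r of 0.9988, 0.9982, 0.9976 and 0.9968 among 5541 genes with a mean of at least 10 RPKM. Of those genes, 18 (0.325%) had an r of at least 0.99. These r values are descriptions over 6 libraries of 3 conditions, and the libraries share their scaling. Etfdh, the electron-transfer flavoprotein dehydrogenase that links fat oxidation with ubiquinone, stood at 48.1 and 50.8 RPKM in cKO cold, 142 and 129.6 RPKM in WT cold and 31.9 and 35.2 RPKM in WT RT inputs. Hadha encodes the alpha subunit of the trifunctional protein of fatty acid oxidation. Among the members themselves r with that mean ran from 0.8992 for Idh3g to 0.995 for Fh1, and was 0.9297 for Idh3a.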

How the data were processed

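The deposited matrix holds 1 RPKM value per gene and library for 17883 genes, made by the authors. The submitters' processing notes name HISAT2 and mm10 with no version; the counting tool and annotation are not given in the sources used here. The labels' protocols name a TruSeq small RNA kit for the libraries. All value columns were used (0 left out). RPKM values are not counts, and scaling to all reads lets a few abundant genes move the rest, so other scalings were tried.

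Reads behind each value were recovered by searching for 1 constant per library and 1 length per gene. Within 0.001 read plus 3e-08 of the reads, values of 17883 genes (100.0%) came out whole. Of 200 genes with scrambled values, 0 did so in input and m6A libraries and 14 (7.0%) in footprints, so footprint reads are lower bounds. Read numbers and depths speak to counting error only, while the standard errors given come from spread between libraries. The length used for footprints is not given. Footprints of a gene were therefore compared between genotypes, and footprints over input only by their change between genotypes.

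The test was limma's (3.58.1, under R 4.3.3), two-sided, by lmFit and a trended eBayes, of log2(RPKM + 1). A gene was tested if 2 or more libraries of the fit had 1 RPKM or more. The pseudocount of 1 shrinks folds of low genes. Fits held 6 inputs, 12 input and m6A libraries, or 8 cold input and footprint libraries, with 3, 6 and 4 residual degrees of freedom. Adjusted p-values are Benjamini-Hochberg over all genes tested, threshold 0.05. Changes of m6A or footprints over input are interaction terms. A run of the fit on simulated data drew libraries independently, unlike the correlated replicates described below, and no result here rests on it. Figures used Python 3.11.15 and matplotlib 3.10.9.

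Replicate numbers were checked for pairing: deviations of libraries of 1 condition and number correlated at 0.305 to 0.656 over 8464 genes, and at -0.099 to 0.078 across conditions. Libraries of 1 condition on this evidence go together by number, which the labels do not state. Skeletal muscle marker sums do so in cKO cold inputs (4.16 and 152 RPKM in replicates 1 and 2) and m6A libraries (3.02 and 325 RPKM). In cKO cold footprints their order is the reverse, at 341 and 7.56 RPKM. Pairing of the cKO cold footprints by number is therefore uncertain. The fits reported have no block, and the fit with the numbers as a block is an alternative, given where it changes a call.

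The members, gene lists, marker lists and motifs were chosen with earlier results of these data known. All members are named. Other pathway genes were named where they are a partner subunit, an adjacent enzyme or among the most changed of a list; Idh2, Got2, the cytosolic counterparts, and the further genes of the supply and regulator lists were named after their values were seen. Promoters came from RefSeq, GRCm38.p6. A few genes that these rules would name are not reported here.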

Additional observations from a re-analysis of the deposited data

How the results depend on the processing

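All 9 members were called higher in WT cold than in WT RT under every alternative run: median-ratio scaling, quantile scaling, scaling outside mitochondrial mRNAs, Lars2 and Gm20594, pseudocount 0.1, no filter, all 16 libraries in 1 fit, the replicate block and each library left out. Lower calls in cKO cold than in WT cold stayed at 9 under the same alternatives, except that the Mdh2 call was lost without cKO cold input replicate 1. Most calls were lost without both muscle-rich inputs, where log2 fold changes were -1.26 for Ogdh and -1.18 to -0.69 for the other 8. In cKO cold over WT RT, where 2 members were higher, the count was 7 with median-ratio scaling, 4 with scaling outside mitochondrial mRNAs, 1 with all 16 libraries, 1 to 3 with a library left out and 0 without both muscle-rich inputs. In footprints, where 7 members were lower, it was 4 with no filter and 2 to 6 with a library left out. With the replicate block, 1 member (Idh3a) was higher in the change of m6A over input for WT cold over WT RT, where the fit without it called 0, and the block changed no other member's call. Dlst m6A over input in WT cold reversed to 0.053 with quantile scaling. The cause of these changes was not tested. Fits without a library have fewer samples, and the share of all genes called is not given here for most of them. The fit without both muscle-rich inputs leaves 1 library each in WT RT and cKO cold, so its calls rest on the spread of the 2 WT cold libraries. Over members, comparisons and settings, 1430 fold changes kept direction and side of the threshold, 54 lost a call, 18 gained one and 1 reversed, and 225 ratio values moved by less than the replicate spread. Counts over all genes moved by over 1.5 times: in WT cold over WT RT, 2806 higher and 2308 lower with quantile scaling, 1201 and 4761 outside mitochondrial mRNAs, 425 and 2994 without WT RT input replicate 1; in cKO cold over WT cold, 757 and 658 with quantile scaling, 1933 and 462 outside mitochondrial mRNAs and 1551 and 229 with no filter; in footprints, 133 and 367 with median-ratio scaling, 128 and 69 with no filter and 3285 and 489 with all 16 libraries. With 2 libraries a group, small differences are not detectable.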
